A study of Canis lupus familiaris with 34 samples.

Results

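The genes described here are the chaperones of the heat shock families and the enzymes and chaperones of collagen secretion, measured by RNA sequencing in canine osteosarcoma, a bone cancer. They are the rows of the expression table whose names begin with HSPA, HSPB, HSPD, HSPE, HSPH, HSP90, DNAJ, PDIA, SERPINH1, P4HA, P4HB or PLOD. This rule gave 73 genes of 23988 rows, and 69 of them reached at least 1 FPKM (fragments per kilobase, corrected for library size) in at least 2 libraries. The 4 that did not were DNAJB8, DNAJB13, DNAJC5B and DNAJC5G. The rule looks at names only. HSPA1A, HSPA1B, HSPA6, HSPB1, HSPB8, HSP90B1, PDIA3 and PDIA6 carry no name in the table and were not analysed here. Of 16 genes listed as cytosolic stress chaperones, 11 were therefore measured. They were HSPA1L, HSPA4, HSPA4L, HSPA8, HSPH1, HSP90AA1, HSP90AB1, DNAJA1, DNAJA4, DNAJB1 and DNAJB4. HSPA1A, HSPA1B, HSPA6, HSPB1 and HSPB8 are missing from this class, so it does not cover the heat shock response as a whole.

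The libraries fall into 4 groups. They are 2 cell lines from osteosarcoma (named OSCA.8 and OSCA.78), 1 metastasis (DOS.6M), 1 osteoblast culture (CNOB, labelled as a cell line) and 30 libraries of primary bone tumours. All carry the breed label Golden Retriever, although the design text also speaks of Rottweilers, and no treatment, age or sex is given. It is not stated whether a line is a single clone, or which dog each sample came from. The titles DOS.46 and DOS.46.2 have a number in common, and these libraries were averaged, so that 29 primary tumours were compared.

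Heat shock proteins of the cytosol hold unfolded proteins and help them refold. HSP70 proteins do the work of binding, J-domain proteins (DNAJ) bring them their clients, HSPH1 exchanges their nucleotide, and HSP90 proteins finish the maturation of kinases and receptors. Many of these genes are switched on together by the transcription factor HSF1 when proteins unfold. Collagen needs a separate set in the endoplasmic reticulum. Prolyl 4-hydroxylases (the P4HA subunits with P4HB) stabilise the triple helix, lysyl hydroxylases (PLOD1, PLOD2, PLOD3) prepare cross-links, and SERPINH1, also called HSP47, binds the folded procollagen on its way out. Bone-forming cells secrete large amounts of type I collagen and depend on this set.

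Summed FPKM per library lay between 479053 and 1418308, with the highest sum in the osteoblast culture. The chaperone genes took between 0.543% and 1.49% of that sum, with a median of 1.03% in the primary tumours. Sequencing depth in reads is unknown. The libraries DOS.100 and DOS.32 carry different titles, yet their deviations from the tumour mean correlated at r = 0.844 across genes, against 0.745 for DOS.46 with DOS.46.2. The SD of their log2 ratio was 0.167, where the median over pairs of primary tumour libraries was 0.861. DOS.110 and DOS.115 correlated at r = 0.668, and the metastasis correlated with DOS.6, whose title has the same number, at r = 0.51. Results that rest on these libraries are also given for 27 tumours, with DOS.100 and DOS.32 averaged and DOS.110 and DOS.115 averaged.

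SERPINH1 and P4HB were the most abundant of the chaperone genes per transcript length. SERPINH1 had a median of 962 FPKM in the 29 primary tumours (range 540.4 to 1818) and P4HB, the shared beta subunit and a disulphide isomerase, had 871 FPKM (range 371 to 1439.8). These ranges overlap over most of their length. HSPA5 (BiP, the HSP70 of the endoplasmic reticulum) followed with a median of 548 FPKM, and PDIA4, a disulphide isomerase, with 372 FPKM. The leading cytosolic chaperone was HSP90AB1, the constitutive HSP90, with a median of 301 FPKM. HSP90AA1, the stress-inducible HSP90, had a median of 170.4 FPKM and HSPA8, the constitutive HSP70, 135 FPKM. The inducible cochaperones were lower, with medians of 56.0 FPKM for HSPH1 and 26 FPKM for DNAJB1. All of these neighbouring genes overlapped in their ranges across tumours.

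**Figure D1:**
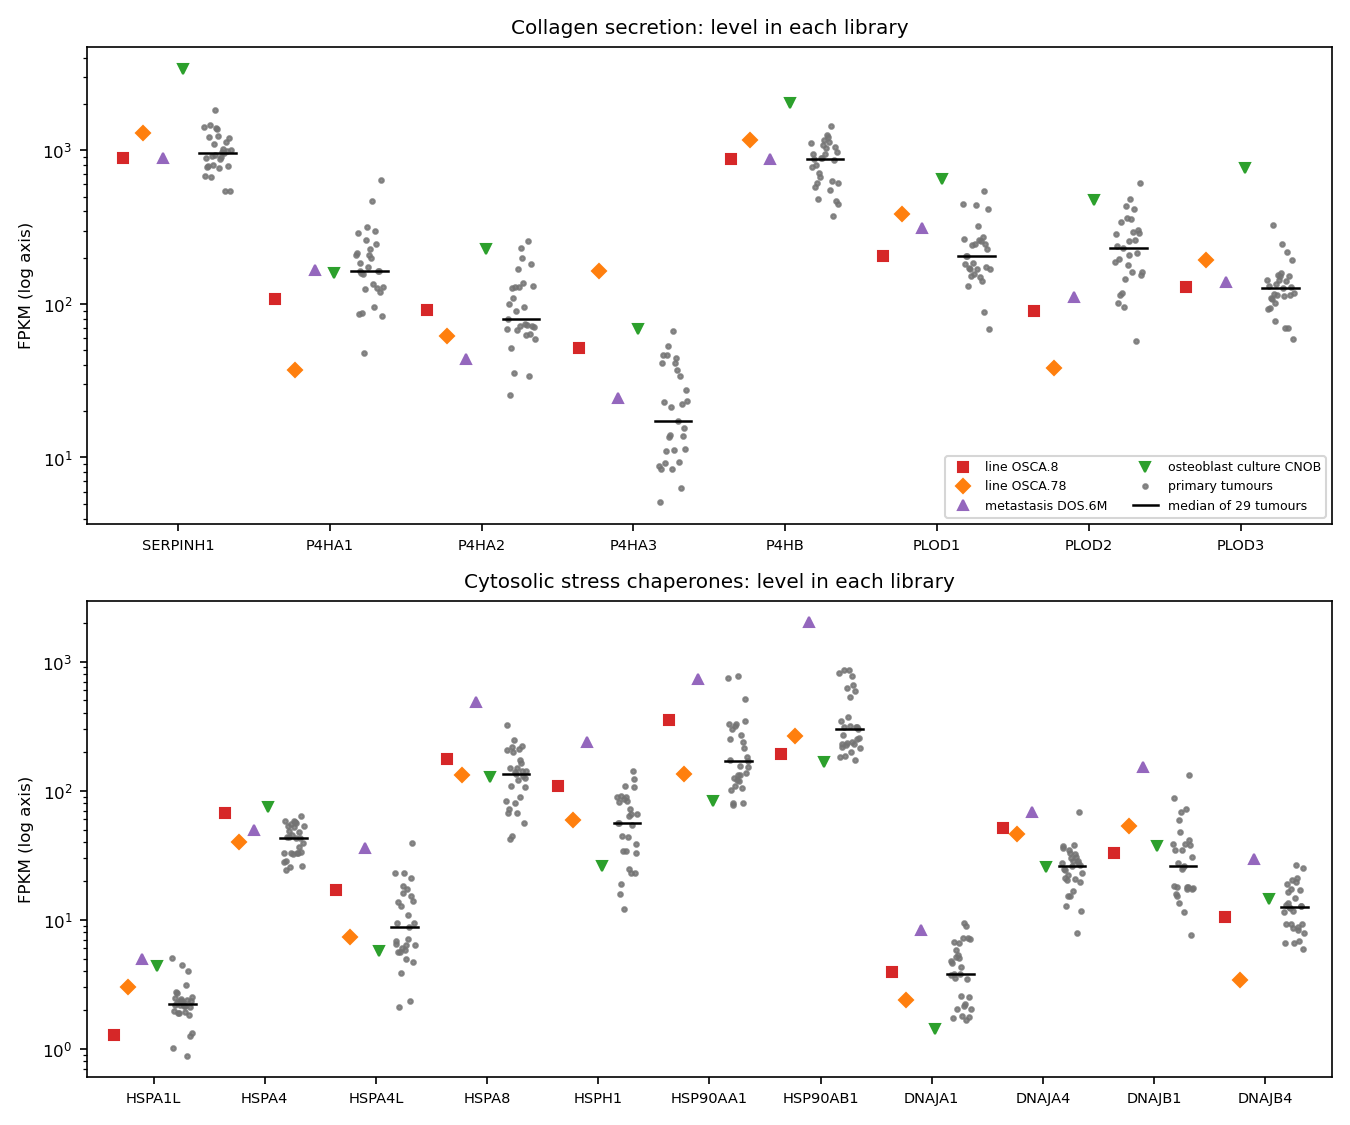
FPKM on a log axis of the 8 collagen secretion genes (top) and of 11 cytosolic stress chaperones (bottom) in each cell line, the metastasis, the osteoblast culture and the 29 primary tumours (grey points, black bar at their median). The metastasis lies above every primary tumour for HSP90AB1, HSPH1, HSPA8, DNAJB1 and DNAJB4, and the osteoblast culture lies above every primary tumour for SERPINH1, P4HA3, P4HB, PLOD1 and PLOD3.

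The lines were first set against the primary tumours. Cytosolic stress chaperones did not pass the test in either direction, while single genes of other classes did. Of the 69 genes, 6 were higher in the lines (DNAJC12, P4HA3, DNAJC6, DNAJC5, DNAJC11 and HSPBP1) and 5 were lower (HSPA12B, PLOD2, DNAJC2, DNAJC13 and DNAJC3), by limma with Benjamini-Hochberg adjusted p below 0.05 over 15165 genes. Over all genes tested 8.49% were higher and 7.92% lower, 16.4% in all, so the 11 genes of 69 are near the background. At an unadjusted p below 0.05 there were 24 chaperone genes of 69, where 30.5% of all genes reached that level. With 27 tumours the same 6 and 5 genes passed. Fold changes are on the log2(FPKM + 1) scale, which understates changes of low genes. Each p-value rests on the spread between these samples, nearly all of it between tumours. The samples may in part differ for technical reasons.

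In collagen secretion, P4HA3 rose and PLOD2 fell, and 6 of 8 genes did not pass. P4HA3, a catalytic subunit of prolyl 4-hydroxylase, had 51.5 FPKM in OSCA.8 and 163 FPKM in OSCA.78, against a range of 5.11 to 66.6 FPKM (median 17.2) in the primary tumours. OSCA.78 stood above every tumour and OSCA.8 within their upper range. The log2 fold change was 2.21 (SE 0.68, limma adjusted p = 0.024). PLOD2, the lysyl hydroxylase of the collagen ends, had 89.7 and 38.0 FPKM in OSCA.8 and OSCA.78, against 57.0 to 609.7 FPKM (median 232) in the primary tumours. OSCA.78 lay below every tumour, OSCA.8 among the lowest. The log2 fold change was -1.89 (SE 0.55, limma adjusted p = 0.0157). Both calls needed OSCA.78. With OSCA.8 alone the log2 fold change was 1.39 for P4HA3 and -1.28 for PLOD2, with limma adjusted p of 0.591 and 0.506.

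The remaining collagen secretion genes overlapped between lines and tumours. SERPINH1 had 893 FPKM in OSCA.8 and 1301 FPKM in OSCA.78, beside the tumour range above (log2 fold change 0.16, SE 0.32, limma adjusted p = 0.773). P4HB had 874 and 1159.8 FPKM in the lines, also within its tumour range (0.33, SE 0.37). P4HA1, the major catalytic subunit in many tissues, had 108 and 36.9 FPKM in OSCA.8 and OSCA.78, against a tumour range of 48.1 to 638 FPKM, and its log2 fold change of -1.43 gave a limma adjusted p of 0.0721. P4HA2, PLOD1 and PLOD3 had log2 fold changes of -0.24, 0.43 and 0.33. The median log2 fold change of the 8 genes was 0.24, beside -0.05 over all genes. Of 4 fibrillar collagen genes measured, none passed in limma. COL1A2 had 3044 and 2031 FPKM in the lines, against a tumour range of 2869.7 to 21005 FPKM (limma adjusted p = 0.0812). Among 19 other genes of collagen modification and export, none rose and 2 fell. They were CRTAP, a partner of prolyl 3-hydroxylase (log2 fold change -1.08, SE 0.33), and ADAMTS2, the procollagen N-proteinase (-2.07, SE 0.67). ADAMTS2 was at -1.12 without OSCA.78 (limma adjusted p = 0.672), and CRTAP did not pass with either line alone (limma adjusted p of 0.102 and 0.28).

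None of the 11 cytosolic stress chaperones passed, and their median log2 fold change was 0.26. HSPH1 had 109 and 59.6 FPKM in OSCA.8 and OSCA.78, against 12.1 to 143 FPKM in the primary tumours (log2 fold change 0.63, SE 0.63). HSP90AB1 had 193 and 264 FPKM in the lines, against 173 to 868 FPKM in the primary tumours (-0.56, SE 0.52). HSPA8 and DNAJB1 likewise lay inside their tumour ranges in both lines. With SEs of this size, missing the threshold does not show equal levels. Nearest to the threshold among the wider cytosolic class was HSPA14, a ribosome-associated HSP70, with a log2 fold change of -0.98 and a limma adjusted p of 0.0523. It had 10.3 FPKM in OSCA.8 and 2.78 FPKM in OSCA.78, against 6.52 to 25.8 FPKM in the primary tumours, so that OSCA.78 alone lay below the tumours. The change was -0.19 with OSCA.8 alone (limma adjusted p = 0.903) and -1.77 with OSCA.78 alone (0.0102). Of 18 other genes of the heat shock response, 2 rose. FKBP4, an HSP90 cochaperone, had 396 and 451 FPKM in OSCA.8 and OSCA.78, against 33.1 to 434 FPKM in the primary tumours (log2 fold change 2.13, SE 0.59, limma adjusted p = 0.012). BAG3, which couples HSP70 to autophagy, had 27.1 and 82.1 FPKM in the lines, against 5.99 to 53.0 FPKM in the primary tumours (1.58, SE 0.49, limma adjusted p = 0.0242). FKBP4 kept its size but not its call with OSCA.8 or OSCA.78 alone (limma adjusted p of 0.253 and 0.0712), and BAG3 was at 0.80 without OSCA.78 (limma adjusted p = 0.68).

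Of the 36 J-domain genes past the filter, 4 rose and 3 fell, beside the 8.49% and 7.92% of all genes given above. DNAJC6 (auxilin, which strips clathrin from vesicles) had 3.62 FPKM in OSCA.8 and 3.97 FPKM in OSCA.78, against 0 to 1.73 FPKM (median 0.113) in the primary tumours. Both lines stood above every tumour. The log2 fold change was 2.02 (SE 0.25, limma adjusted p = 8e-07), and it passed with either line alone (adjusted p = 0.00073 for OSCA.8 and 0.00021 for OSCA.78). DNAJC5, the cysteine string protein of secretory vesicles, had 84.3 and 93.7 FPKM in the lines, against 12.1 to 50.3 FPKM in the primary tumours, again without overlap. Its log2 fold change was 1.55 (SE 0.33, limma adjusted p = 0.00161, 0.0983 without OSCA.78). DNAJC12, a cochaperone of the aromatic amino acid hydroxylases, had 11 and 10.4 FPKM in the lines, against 0 to 6.14 FPKM in the primary tumours. Its log2 fold change was 2.29 (SE 0.57, limma adjusted p = 0.00567). DNAJC11, a mitochondrial J-domain protein, had 30.1 and 35.4 FPKM in the lines, against 11.2 to 34.6 FPKM in the primary tumours (1.0, SE 0.28). HSPBP1, a nucleotide exchange cofactor of HSP70 and no J-domain gene, had 39.8 and 44.6 FPKM in the lines, against 14.1 to 37.5 FPKM in the primary tumours (0.89, SE 0.26). With 1 line left, the changes of DNAJC12, DNAJC11 and HSPBP1 kept their size but lost the call, at limma adjusted p of 0.0575 to 0.319.

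DNAJC2, a ribosome-bound J-domain protein, had 15.8 and 6.47 FPKM in OSCA.8 and OSCA.78, against 13.6 to 59.0 FPKM in the primary tumours (log2 fold change -1.39, SE 0.38, limma adjusted p = 0.0111). Only OSCA.78 lay below every tumour, and the change without it was -0.81 (limma adjusted p = 0.556). DNAJC13, an endosomal J-domain protein, had 4.40 and 4.34 FPKM in the lines, against 3.89 to 16.8 FPKM in the primary tumours (-0.95, SE 0.30). Its change was -0.95 without OSCA.78 and -0.96 without OSCA.8, with limma adjusted p of 0.307 and 0.122. DNAJC3, which restrains the PERK kinase in the unfolded protein response, had 38.9 and 13.2 FPKM in the lines, against 26.3 to 78.0 FPKM in the primary tumours. Its change of -0.89 (limma adjusted p = 0.0479) was -0.15 without OSCA.78, and the call also ended without the tumour DOS.6 (adjusted p = 0.0549) and without a filter on low values (0.0531). No other endoplasmic reticulum chaperone passed. HSPA5 had 343 and 326 FPKM in the lines, against 239.5 to 1578 FPKM in the primary tumours. None of 17 unfolded protein response genes passed either.

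HSPA12B, a distant HSP70 relative known from endothelial cells, was listed at 0 FPKM in OSCA.8 and at 0.0127 FPKM in OSCA.78, against 0.45 to 36.5 FPKM (median 9.06) in the primary tumours. Both lines lay below every tumour, with a log2 fold change of -3.14 (SE 0.92, limma adjusted p = 0.0176). With only OSCA.8 or only OSCA.78 the change was -3.15 or -3.13 and the adjusted p 0.261 or 0.104. The 4 endothelial markers measured (PECAM1, CDH5, PLVAP and TEK) all fell too, and summed to 0.349 and 0.391 FPKM in OSCA.8 and OSCA.78, against 73.0 to 2135 FPKM in the primary tumours. None was at exactly 0. The 6 macrophage markers fell as well, with sums of 1.39 and 1.94 FPKM in the lines, against 62.6 to 1314 FPKM in the primary tumours, and 3 of 4 proliferation markers rose, with sums of 183 and 513 FPKM in the lines, against 34.3 to 344 FPKM in the primary tumours. The part of cell content in the change of HSPA12B was not tested. In these bulk samples fewer cells of a type and less RNA per cell cannot be told apart.

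Among the small heat shock proteins no gene passed. The lines themselves differed in HSPB6 (HSP20, abundant in muscle), with 2.11 FPKM in OSCA.8 and 50.6 FPKM in OSCA.78, against 14.9 to 296 FPKM in the primary tumours. With OSCA.8 alone it passed, at -4.13 on the log2 scale (limma adjusted p = 0.0176), and with OSCA.78 alone it was at -0.08 (0.967). HSPB7, a muscle member of the family, had 0.0418 FPKM in OSCA.8 and was listed at 0 in OSCA.78, against 0.0579 to 14.5 FPKM in the primary tumours (limma adjusted p = 0.141, and 0.00742 with a pseudocount of 0.1 FPKM). Both lines stood above all tumours in 4 chaperone genes (HSPBP1, DNAJC5, DNAJC6 and DNAJC12) and below all in 2 (HSPA12B and HSPB7), where 4.04% and 7.3% of all genes did so.

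**Figure D2:**
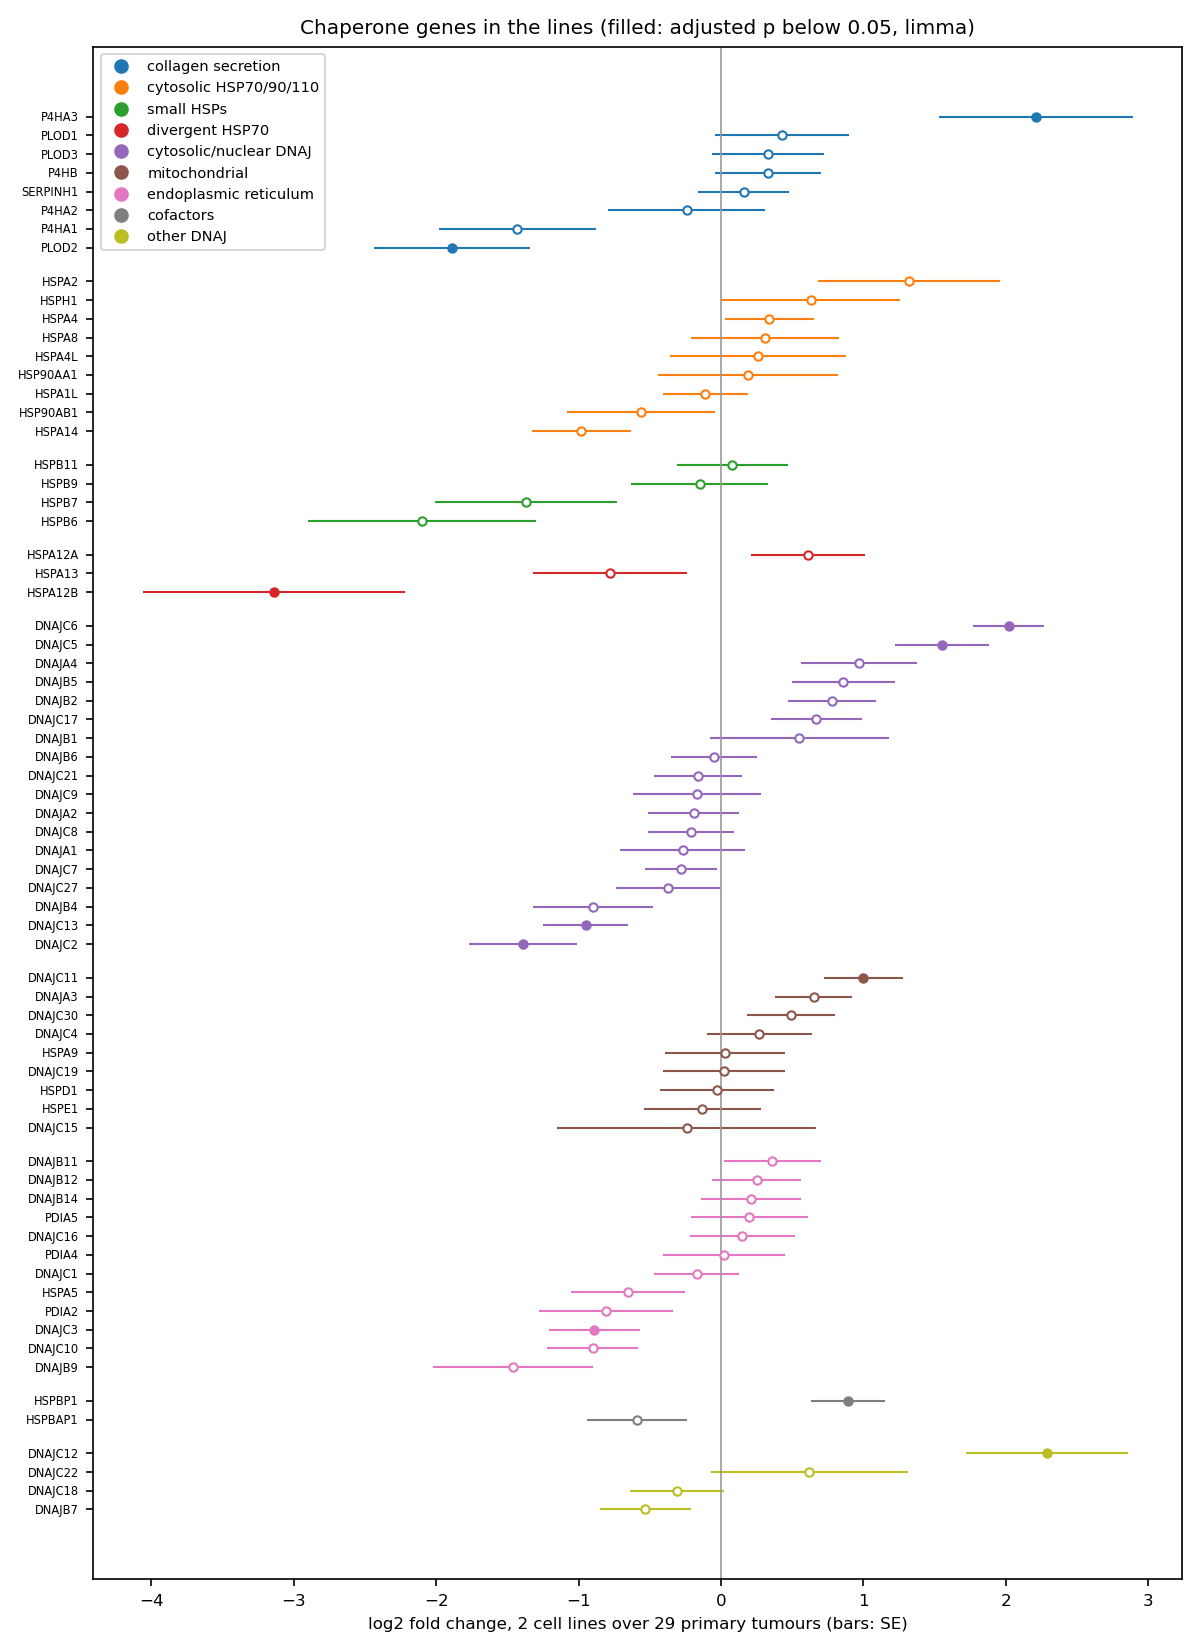
Log2 fold change of the 69 genes, 2 cell lines over 29 primary tumours, with bars of 1 SE and filled points for limma adjusted p below 0.05, grouped by class. Filled points to the right are the 6 higher genes, those to the left the 5 lower genes, and no point of the cytosolic HSP70, HSP90 and HSP110 class is filled.

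In the metastasis, several cytosolic stress chaperones had levels above those of every primary tumour, and collagen secretion genes did not. This is a single library, so no test was made. Of the 69 genes, 10 were above all 29 primary tumours and 0 below, where 5% of all genes were above and 3.53% below. The 10 genes included 5 of the 11 cytosolic stress chaperones and none of the 8 collagen secretion genes. HSP90AB1 had 2019 FPKM in the metastasis, against 173 to 868 FPKM in the primary tumours, a level 2.33 times that of the highest tumour. HSPH1 had 237 FPKM in the metastasis, against at most 143 FPKM in the primary tumours. HSPA8 had 484 FPKM in the metastasis, against at most 320.4 FPKM in the primary tumours.

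DNAJB1, the J-domain partner of inducible HSP70, had 152 FPKM in the metastasis and at most 133 FPKM in the primary tumours, and DNAJB4, a close relative, had 29.8 FPKM in the metastasis and at most 26.7 FPKM in the primary tumours. The mitochondrial chaperonin was also high. Its subunit HSPD1 had 49.2 FPKM in the metastasis and at most 44.9 FPKM in the primary tumours, and its lid HSPE1 had 210.3 FPKM in the metastasis and at most 161 FPKM in the primary tumours. DNAJC5, DNAJC8 and DNAJB11 exceeded the highest tumour by less, at 1.03, 1.01 and 1.03 times its level. HSP90AA1, at 727 FPKM in the metastasis, was exceeded by the alike libraries DOS.100 and DOS.32, of which DOS.32 had 779 FPKM. HSPA5 had 1521 FPKM in the metastasis and 1578 FPKM in DOS.76, the single tumour above it.

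The tumour DOS.6 shares its title number with the metastasis, although the labels do not say that the dog is the same. The metastasis was higher than DOS.6 in 10 of the 11 cytosolic stress chaperones, the exception being DNAJA1 (8.40 FPKM in the metastasis and 9.40 FPKM in DOS.6), and in 3 of the 8 collagen secretion genes. HSP90AB1 had 2019 FPKM in the metastasis and 774 FPKM in DOS.6. HSPH1 had 237 FPKM in the metastasis and 71.9 FPKM in DOS.6. HSPA8 had 484 and 210.3 FPKM, and DNAJB1 152 and 72.2 FPKM, in the metastasis and in DOS.6. On the log2(FPKM + 1) scale the 11 differences ran from -0.15 to 1.71, with a median of 1.2. The 8 differences of collagen secretion genes ran from -0.75 (P4HA2) to 0.31, with a median of -0.20, and SERPINH1 had 892 FPKM in the metastasis and 907 FPKM in DOS.6. Over the 69 genes, 42 were higher in the metastasis than in DOS.6 and 27 lower, with a median difference of 0.18. The share over all genes is not given here, so the counts of the 2 classes have only the 69 genes beside them.

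Collagen secretion genes of the metastasis lay inside the tumour range. PLOD2 had 111 FPKM and P4HA2 43.6 FPKM in the metastasis, with 3 of 29 primary tumours below it in each. P4HB had 872 FPKM and PLOD1 311 FPKM, with 15 and 24 tumours below. Of the fibrillar collagens, 3 of 4 were below every tumour, among them COL1A2 with 1930 FPKM in the metastasis and at least 2869.7 FPKM in the primary tumours. The other heat shock response genes gave 4 of 18 above all tumours (BAG3, CHORDC1, CCT3 and CCT6A). BAG3 had 96.1 FPKM in the metastasis and at most 53.0 FPKM in the primary tumours. The unfolded protein response gave 2 of 17 (DDIT3 and HERPUD1).

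Immediate early genes, which respond within minutes to handling of tissue, were also high in the metastasis library. The 5 measured (FOS, JUN, EGR1, ATF3 and IER2) summed to 3201 FPKM in the metastasis, against 93.8 to 2877 FPKM (median 319) in the primary tumours. ATF3 had 361 FPKM in the metastasis and at most 86.8 FPKM in the primary tumours, and JUN was likewise above every tumour (743 FPKM, against at most 713 FPKM), while FOS, EGR1 and IER2 lay inside the tumour range. None of the 5 was at 0. The 4 fibroblast markers summed to 115 FPKM in the metastasis, with 1 of 29 primary tumours below it. The part of tissue handling or of cell content in the chaperone levels was not tested. After quantile normalisation 9 of the 10 genes remained above all tumours, the exception being DNAJB11.

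**Figure D3:**
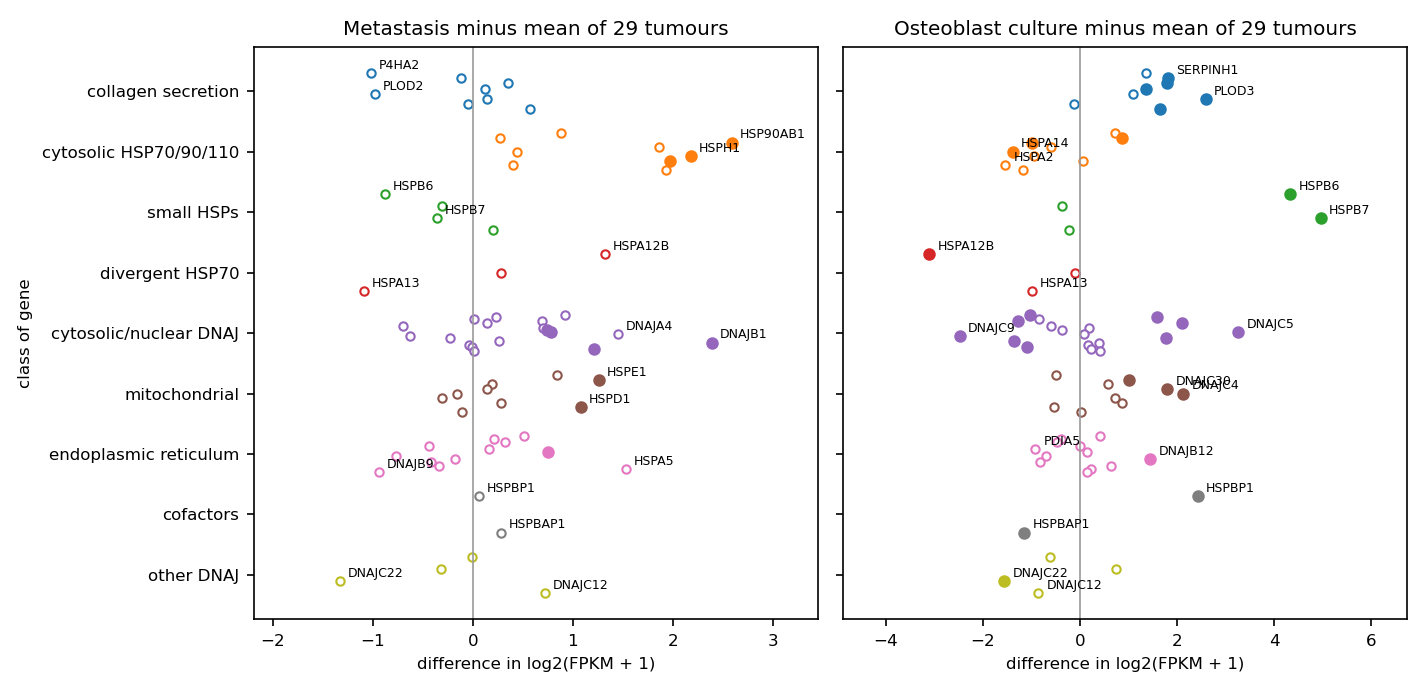
Difference in log2(FPKM + 1) of each of the 69 genes, metastasis minus the mean of 29 primary tumours (left) and osteoblast culture minus the same mean (right), by class, with filled points outside the range of all tumours. The metastasis has its largest differences at HSP90AB1 (2.59), DNAJB1 (2.39) and HSPH1 (2.18), the osteoblast culture at HSPB7 (4.96) and HSPB6 (4.33).

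The osteoblast culture, also a single library, showed high values of collagen secretion genes and of muscle-type small heat shock proteins. Of the 69 genes, 17 were above all 29 primary tumours and 10 below, where 22% of all genes were above and 19.5% below. Both counts are near those shares. Of the 8 collagen secretion genes, 5 were above every tumour. SERPINH1 had 3399 FPKM in the culture, against at most 1818 FPKM in the primary tumours. PLOD3, which also adds sugars to collagen lysines, had 762 FPKM in the culture, against at most 327 FPKM in the primary tumours.

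P4HB had 2047 FPKM in the culture and at most 1439.8 FPKM in the primary tumours. PLOD1, the lysyl hydroxylase of the helix, had 652 FPKM in the culture and at most 541 FPKM in the primary tumours. P4HA3 was barely outside, with 68.9 FPKM in the culture and at most 66.6 FPKM in the primary tumours. These high values depended on the scale. The median gene differed by -0.14 on the log2 scale from the tumour mean in the deposited values and by -0.49 after scaling to a common upper quartile. Upper quartile scaling left SERPINH1 and PLOD3 above every tumour and P4HB above 27. Quantile normalisation, which gives every library the same distribution, left SERPINH1 above 17 tumours and PLOD3 above 28, and put P4HB below the tumour mean, at -0.19.

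The small heat shock proteins kept their place under both scalings. HSPB6 had 1092 FPKM in the culture, against 14.9 to 296 FPKM in the primary tumours, 3.68 times the highest tumour. HSPB7 had 81.3 FPKM in the culture, against at most 14.5 FPKM in the primary tumours. Their relative CRYAB, outside the name pattern, had 6130.2 FPKM in the culture and at most 179.8 FPKM in the primary tumours. HSPBP1 (123 FPKM in the culture, at most 37.5 FPKM in the primary tumours) and DNAJC5 (294 FPKM in the culture, at most 50.3 FPKM in the primary tumours) also stayed above every tumour.

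Some cytosolic chaperones were low in the culture, with HSP90AB1 at 166 FPKM in the culture and at least 173 FPKM in the primary tumours, and DNAJA1, a cochaperone of HSPA8, at 1.43 FPKM in the culture and at least 1.68 FPKM in the primary tumours. HSP90AB1 was below every tumour under both scalings as well. DNAJA1 was above 9 tumours after quantile normalisation. HSPH1 had 26.2 FPKM in the culture, with 6 of 29 primary tumours below it. HSPA4, an exchange factor of HSP70, was above every tumour in the deposited values, at 75.2 FPKM in the culture and at most 63.4 FPKM in the primary tumours, but above 18 and 15 tumours after upper quartile scaling and quantile normalisation. Of the 11 cytosolic stress chaperones, 1 was above and 2 below all tumours in the deposited values, and the median difference was 0.06. This too depended on the scale. The mean level of the 11 genes in the culture was above 9 tumours in the deposited values. It was above 1 tumour after upper quartile scaling and above 3 after quantile normalisation. HSP90AA1 in the culture was above 3 tumours in the deposited values and above 0 after either scaling.

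Bone matrix markers of the culture were below every primary tumour or inside the tumour range. IBSP had 6.95 FPKM and SPP1 4.38 FPKM in the culture, against at least 48.6 and 47.4 FPKM in the primary tumours. SP7, a transcription factor of osteoblasts, had 24.7 FPKM in the culture, against 7.72 to 128 FPKM (median 56.9) in the primary tumours. OMD (12.2 FPKM) and DMP1 (0.429 FPKM) also lay inside their tumour ranges, of 7.82 to 1225 and 0.306 to 762 FPKM. The 5 bone matrix markers together summed to 48.6 FPKM in the culture, 33.6 FPKM in OSCA.8 and 11.6 FPKM in OSCA.78, against 114 to 8503 FPKM in the primary tumours. None of the 5 was at 0. Of muscle markers, ACTA1 had 708 FPKM and KCNMB1 211 FPKM in the culture, above all tumours (at most 81.9 and 51.7 FPKM), while CKM had 0.0979 FPKM and MYOG was listed at 0. The 6 skeletal muscle markers summed to 709 FPKM in the culture, nearly all of it ACTA1, against 1.96 to 269.9 FPKM in the primary tumours. The 4 smooth muscle and pericyte markers summed to 366 FPKM in the culture, with 26 of 29 tumours below. Nearly all of this sum was KCNMB1 and MCAM (155 FPKM, inside the tumour range). MYH11 (0.424 FPKM) and RGS5 (0.0663 FPKM) lay below every tumour (at least 1.5 and 7.55 FPKM). Proliferation markers summed to 7.24 FPKM in the culture, against 34.3 to 344 FPKM in the primary tumours. The part of these features in HSPB6 and HSPB7 was not tested.

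The 2 classes can be summarised by their mean log2(FPKM + 1). For the 11 cytosolic stress chaperones it was 5.31 in OSCA.8, 4.88 in OSCA.78, 6.57 in the metastasis and 4.75 in the osteoblast culture, against 4.19 to 5.72 (median 4.91) in the primary tumours. The metastasis was above every tumour, and the other 3 libraries lay within the range. For the 8 collagen secretion genes it was 7.48 in OSCA.8, 7.57 in OSCA.78, 7.42 in the metastasis and 8.98 in the osteoblast culture, against 6.39 to 8.21 (median 7.59) in the primary tumours. Only the osteoblast culture was outside the range, and after quantile normalisation it was inside, at 7.80 against 6.35 to 8.44 in the primary tumours. The tumour DOS.76 had the lowest collagen secretion level and the highest cytosolic level of the 29. The difference of collagen secretion minus cytosolic level was 0.84 in the metastasis, with only DOS.76 (0.66) lower, and 4.23 in the osteoblast culture, above the highest tumour (3.88). After quantile normalisation the culture was at 3.39, with 26 of 29 tumours below it and the highest tumour at 3.89, while the metastasis kept its place at 0.85. It was 2.17 and 2.69 in OSCA.8 and OSCA.78, against a tumour mean of 2.57 ± 0.65 (SD, n = 29).

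**Figure D4:**
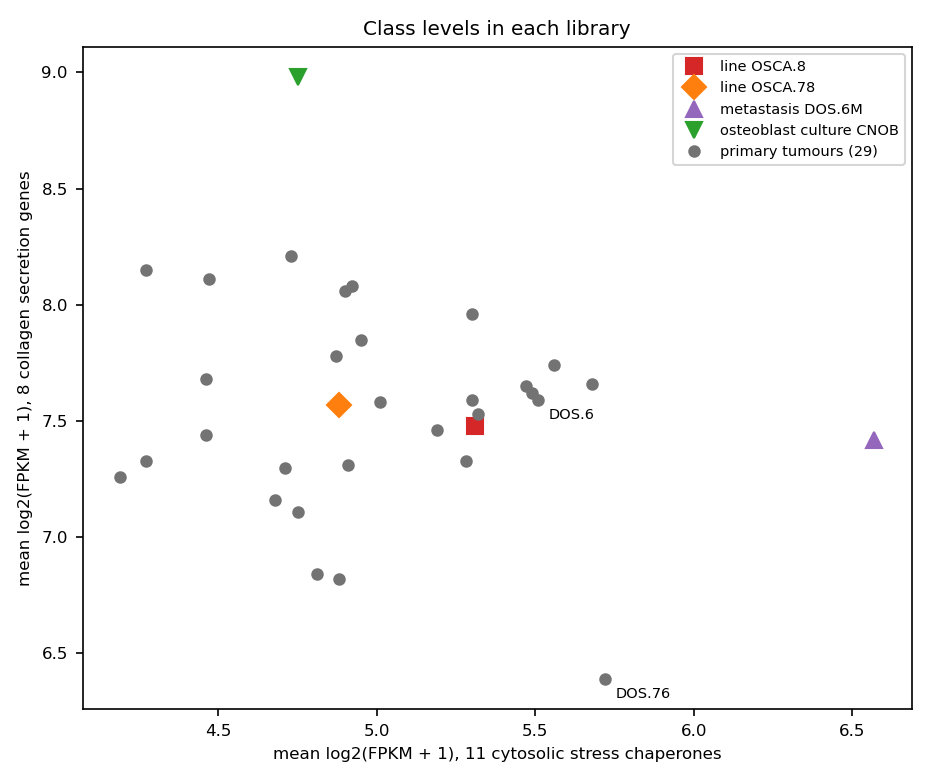
Mean log2(FPKM + 1) of 8 collagen secretion genes (vertical) against that of 11 cytosolic stress chaperones (horizontal), 1 point per cell line, metastasis, osteoblast culture and primary tumour. The metastasis stands alone to the right at 6.57, the osteoblast culture alone at the top at 8.98 in the deposited values, both lines lie among the tumours, and DOS.76 lies at the lower edge.

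Within the primary tumours the labels give no groups, so variation is described only. The median SD of log2(FPKM + 1) was 0.53 for the 69 genes and 0.54 for all genes. It was 0.74 for the cytosolic stress chaperones and 0.71 for collagen secretion. Of the 69 genes, 3 were among the 10% of genes that varied most. HSPA12B (SD 1.34) ranged from 0.45 FPKM in DOS.84 to 36.5 FPKM in DOS.115. HSPB6 (SD 1.04) ranged from 14.9 FPKM in DOS.37 to 296 FPKM in DOS.115, and was no longer among them when alike libraries were averaged (SD 0.98).

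DNAJC15 (SD 1.33), a J-domain protein of the mitochondrial inner membrane, was low in just the alike libraries DOS.100 and DOS.32, with 0.426 and 0.55 FPKM. The next lowest tumour had 8.65 FPKM and the median was 34.4 FPKM. The SD was 1.10 with alike libraries averaged and 0.69 without DOS.100 and DOS.32. The same libraries were the highest tumours for HSP90AA1, with 749.8 and 779 FPKM in DOS.100 and DOS.32, where the next tumour had 511 FPKM.

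SERPINH1 was among the steadier genes, with an SD of 0.42 and a 3.36-fold range across tumours. HSPH1 ranged 11.8-fold, from 12.1 FPKM in DOS.115 to 143 FPKM in DOS.76 (SD 0.91), and DNAJB1 17.4-fold, from 7.62 FPKM in DOS.81 to 133 FPKM in DOS.76 (SD 0.91). In the collagen class P4HA3 had the largest SD (0.97), followed by P4HA2 (0.80). In the endoplasmic reticulum DNAJB9, a target of the unfolded protein response, had an SD of 0.79 and was highest in DOS.76 at 77.7 FPKM.

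Correlations across the 29 primary tumours asked whether the genes moved together. Of 45 gene pairs, 22 passed (permutation test of Pearson r, two-sided, Benjamini-Hochberg adjusted over the 45 pairs). When the 2 tumours that lay farthest out for the first gene (by distance from its median) were dropped, 8 passed. Of these 8, HSPA5 with DNAJB11 had not passed over all 29 tumours. Dropping them narrows the range of the first gene and leaves fewer tumours, so a lost call does not show that a relation rests on them. With 27 tumours 17 pairs passed. The calls lost there were SERPINH1 with COL1A2 and with PLOD1, HSPA5 with DNAJC3 and with SDF2L1, and HSPB6 with MYH11.

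In collagen secretion SERPINH1 correlated most closely with FKBP10, a prolyl isomerase that serves procollagen, at r = 0.74 (rho = 0.71, permutation p = 2e-05, adjusted p = 0.0009, r = 0.68 without 2 tumours). SERPINH1 with PLOD3 gave r = 0.58 (rho = 0.61, permutation p = 0.0011, adjusted p = 0.00619, r = 0.52 without 2 tumours). P4HA1 with P4HA2 gave r = 0.50 (rho = 0.61, permutation p = 0.00486, adjusted p = 0.0168, r = 0.59 without 2 tumours). These 3 pairs passed in each of the 7 alternatives run. PLOD2 with FKBP10 gave r = 0.60 (rho = 0.52, permutation p = 0.00046, adjusted p = 0.00296). Without 2 tumours its r was 0.43 and no longer passed.

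SERPINH1 with P4HB (r = 0.54, rho = 0.43, permutation p = 0.0023, adjusted p = 0.0115) and with COL5A1 (r = 0.51, rho = 0.46, permutation p = 0.00477, adjusted p = 0.0168) no longer passed without 2 tumours, where r was 0.46 and 0.38 (adjusted p = 0.0623 and 0.13). Nor did SERPINH1 with COL1A2, the alpha 2 chain of its main client, which had r = 0.42 over all 29 tumours (rho = 0.43, permutation p = 0.0233, adjusted p = 0.0476, r = 0.33 without 2 tumours). With 27 tumours SERPINH1 with COL1A2 gave r = 0.41 and did not pass either (permutation test, adjusted p = 0.0701). SERPINH1 with P4HA1, P4HA2 and PLOD1 passed over all 29 tumours (r = 0.44, 0.45 and 0.47) but not without 2 tumours (r = 0.32, 0.46 and 0.38). By rho, P4HA2 and PLOD1 did not pass (0.35 and 0.31). SERPINH1 with PLOD2 did not pass (r = 0.37, rho = 0.25, permutation p = 0.0468, adjusted p = 0.0779). P4HA3 had the lowest r to SERPINH1 in the class, at -0.06 (rho = -0.16, permutation p = 0.762, adjusted p = 0.798, r = -0.04 without 2 tumours).

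In the cytosol HSPH1 correlated with HSP90AA1 at r = 0.71 (rho = 0.78, permutation p = 6e-05, adjusted p = 0.00126, r = 0.70 without 2 tumours). With DNAJB1 it was r = 0.67 (rho = 0.71, permutation p = 0.0001, adjusted p = 0.00126, r = 0.65 without 2 tumours). With HSPA8 it was r = 0.64 (rho = 0.55, permutation p = 0.00014, adjusted p = 0.00126, r = 0.54 without 2 tumours). The mitochondrial pair HSPD1 and HSPE1 gave r = 0.63 (rho = 0.60, permutation p = 0.00037, adjusted p = 0.00277, r = 0.56 without 2 tumours). These 4 pairs also passed in each of the 7 alternatives. HSPH1 with DNAJA1 gave r = 0.49 (rho = 0.48, permutation p = 0.00731, adjusted p = 0.0235). Without 2 tumours its r was 0.48 and no longer passed (permutation test, adjusted p = 0.0623). HSP90AA1 with HSP90AB1 did not pass (r = 0.31, rho = 0.23, permutation p = 0.1, adjusted p = 0.138, r = 0.01 without 2 tumours). Nor did HSPH1 with the immediate early gene FOS (r = -0.03, rho = -0.04, permutation p = 0.893, adjusted p = 0.913) or DNAJB1 with FOS (r = 0.29, rho = 0.26, permutation p = 0.133, adjusted p = 0.176).

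Between the classes, SERPINH1 with HSPH1 gave r = 0.09 (rho = 0.19, permutation p = 0.652, adjusted p = 0.699, r = 0.13 without 2 tumours). SERPINH1 with HSPA8 gave r = -0.12 (rho = -0.05, permutation p = 0.539, adjusted p = 0.622, r = -0.16 without 2 tumours). SERPINH1 with HSP90AB1 was higher, at r = 0.41 (rho = 0.50, permutation p = 0.0268, adjusted p = 0.0524, r = 0.44 without 2 tumours). It missed the threshold for r and passed it for rho (permutation test, adjusted p = 0.029). It passed in 3 of 7 alternatives, among them r = 0.55 without DOS.76 (adjusted p = 0.0163). With 27 tumours r was 0.35 and did not pass (permutation test, adjusted p = 0.117). As a description over all pairs, the median r was 0.30 within the cytosolic class (55 pairs), 0.45 within collagen secretion (28 pairs) and -0.07 between the classes (88 pairs). An r of at least 0.5 was reached by 12, 9 and 1 of these pairs. Between the classes r ran from -0.54 to 0.52. The share over pairs of all genes is not given here, so these counts have no background beside them. All values in a tumour come from the same library and share its scaling and cell content.

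**Figure D5:**
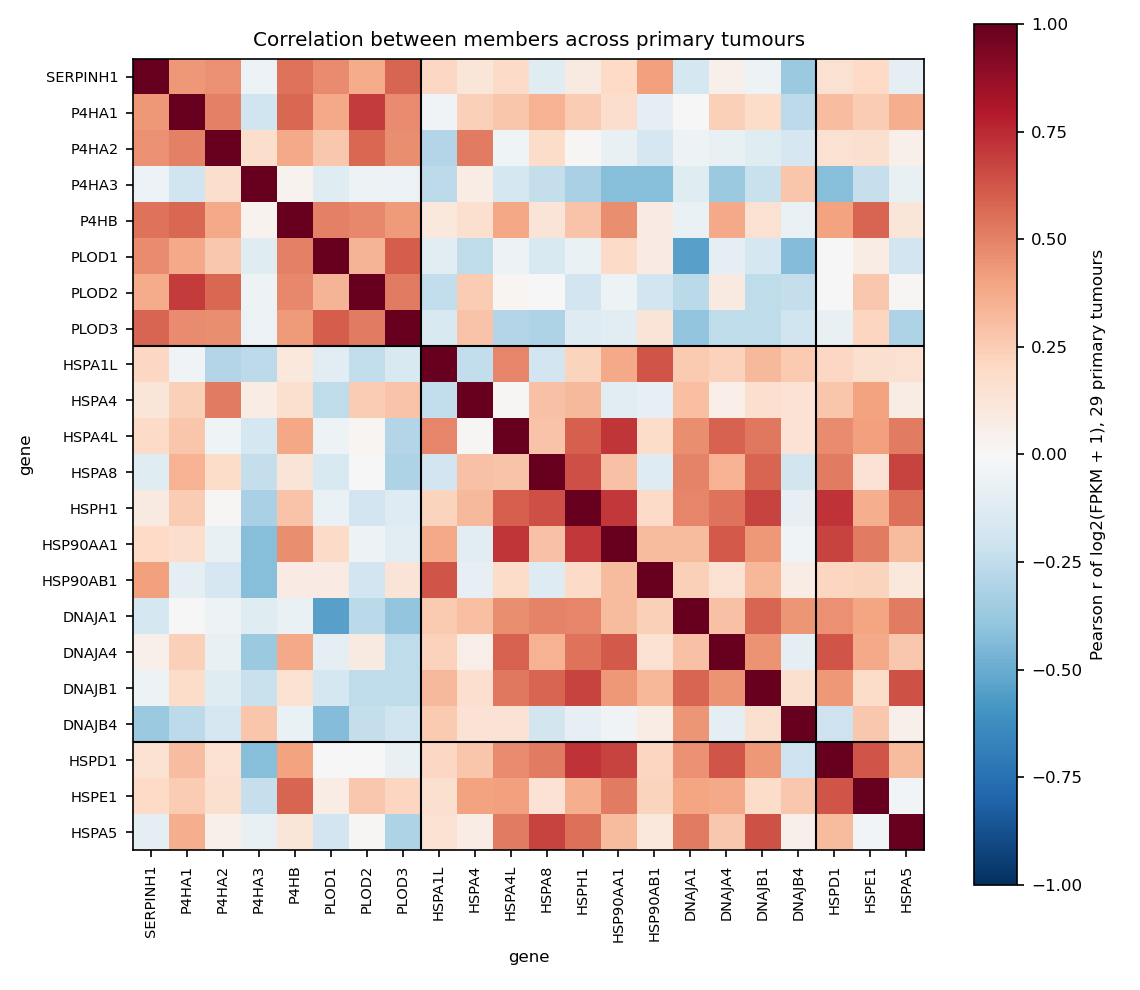
Pearson r of log2(FPKM + 1) across 29 primary tumours between 8 collagen secretion genes, 11 cytosolic stress chaperones, HSPD1, HSPE1 and HSPA5, with black lines between the classes. Red squares fill much of the block of collagen secretion genes except P4HA3, a second red block runs through HSPA4L, HSPA8, HSPH1, HSP90AA1, DNAJA4, DNAJB1 and HSPD1, and the block between the classes has a median r of -0.07.

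In the endoplasmic reticulum HSPA5 correlated with DNAJC3 at r = 0.48 (rho = 0.45, permutation p = 0.00821, adjusted p = 0.0246), which fell to r = 0.42 without 2 tumours and no longer passed. HSPA5 with DNAJB9 (r = 0.44, permutation test, adjusted p = 0.0351) and with SDF2L1 (r = 0.43, adjusted p = 0.0458) also passed. Their rho was 0.32 and 0.51, and neither pair passed without 2 tumours (r = 0.24 and 0.46). HSPA5 with DNAJB11 did not pass with all tumours (r = 0.38, permutation test, adjusted p = 0.0765). Without 2 tumours it passed (r = 0.58, adjusted p = 0.0121). HSPA5 with HYOU1 and with DDIT3 did not pass (r = 0.16 and 0.01). HSPA5 with PDIA4 gave r = -0.11 (rho = 0.01, permutation p = 0.576, adjusted p = 0.648, r = 0.15 without 2 tumours), and HSPA5 with SERPINH1 r = -0.09 (rho = 0.04, permutation p = 0.639, adjusted p = 0.699, r = 0.31 without 2 tumours). Both signs turned without those tumours. P4HA1 with EGLN3, a hypoxia-responsive oxygen sensor, gave r = 0.53 (rho = 0.48, permutation p = 0.0034, adjusted p = 0.0153). By rho this pair also passed (permutation test, adjusted p = 0.037). Without 2 tumours its r was 0.32 and no longer passed. None of the other hypoxia pairs, with ANKRD37 or EGLN3, passed.

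Some members were also set against cell type markers, and no such pair passed without 2 tumours. HSPB7 with MYH11, the smooth muscle myosin, gave r = 0.73 (rho = 0.45, permutation p = 0.00014, adjusted p = 0.00126). By rho it also passed (permutation test, adjusted p = 0.0434). Without 2 tumours r was 0.36 and no longer passed. The tumours left out were the alike libraries DOS.110 and DOS.115, with 14.5 and 11.5 FPKM of HSPB7. With alike libraries averaged (27 tumours) r was 0.62 and still passed (permutation test, adjusted p = 0.00913). HSPA12B with PECAM1, the endothelial adhesion molecule, gave r = 0.52 (rho = 0.44, permutation p = 0.0039, adjusted p = 0.016) and r = 0.44 without 2 tumours, which no longer passed. HSPB6 with MYH11 passed by r (r = 0.47, permutation p = 0.0111, adjusted p = 0.0295) but not by rho (0.12), with r = 0.20 without 2 tumours. HSPB6 with the muscle gene CKM did not pass (r = 0.32, rho = 0.39, permutation p = 0.0863, adjusted p = 0.133). HSPD1 with the proliferation marker MKI67 did not pass (r = 0.38, rho = 0.43, permutation p = 0.0414, adjusted p = 0.0745, r = 0.34 without 2 tumours).

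The genes most like SERPINH1 across the 29 tumours, by Pearson r over all named genes and with no test, were CFAP61, FKBP10, P3H1, PYCR1 and GUSB (r of 0.69 to 0.74). P3H1 is a prolyl 3-hydroxylase of collagen and PYCR1 makes proline. An r of at least 0.5 with SERPINH1 was found for 1.32% of all genes, for 2 of the other 7 collagen secretion genes and for 0 of 11 cytosolic stress chaperones. The genes most like HSPH1 were FKBP4, HSPD1, GRHL1, TRA2B and HSP90AA1 (r of 0.71 to 0.76). An r of at least 0.5 with HSPH1 was found for 1.54% of all genes, for 5 of the other 10 cytosolic stress chaperones and for 0 of 8 collagen secretion genes. The genes most like HSPD1 were HSPH1, FKBP4, AHSA1 (an activator of HSP90), SPDL1 and FANCB (r of 0.70 to 0.72), with 2% of all genes at 0.5 or more, beside 4 of 11 cytosolic stress chaperones and 0 of 8 collagen secretion genes.

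The levels of some genes are uncertain because another row ran closely parallel. The row most like HSPD1 carries no gene name, correlated with it at r = 0.968 across tumours and had a median of 139 FPKM, against 23.5 FPKM for HSPD1. HSPA2, DNAJC8 and HSPA8 also had unnamed rows at r of 0.963, 0.947 and 0.94, and DNAJC6 had one at r = 0.915. Whether reads were split between such rows was not tested.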

How the data were processed

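RNA of 34 dog libraries was measured (total RNA, TruSeq RNA v2, per the labels' protocols). The deposited table names no unit. Its values were read as FPKM made by the authors, since the submitters' processing notes list Cufflinks 2.2.1, TopHat2 2.0.13, FastQC 0.11.2 and the assembly canFam3. For the order of steps, annotation and strandedness, nothing was stated in the labels. Read depth is unknown. Low values gave the FPKM of 1 fragment relative to the other libraries, 0.763 to 2.06.

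Rows were kept if 2 or more libraries had 1 FPKM or more (15165 of 23988), and log2(FPKM + 1) was used. The 2 lines were compared with 29 primary tumours in limma 3.58.1 under R 4.3.3 (trend and robust, two-sided), adjusted over all 15165 genes at a threshold of 0.05. The metastasis and osteoblast culture are single libraries and were described by ranges. Pair correlations used 100000 permutations. Of 45 planned pairs 32 had both symbols, and 13 of 15 pairs added after the symbols were seen could be run. Tables were handled in pandas 2.3.3 and numpy 2.4.6, permutations ran in Python 3.11.15, and matplotlib 3.10.9 drew the figures. The limma step was tested on simulated data.

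The genes, classes and lists were chosen with earlier results of these data known. Named genes are all collagen secretion genes, the main chaperones of each compartment, per class the largest called changes and the largest SDs, the 3 largest called changes of each outside list, and the 5 genes most like SERPINH1, HSPH1 and HSPD1. Other genes, named in counts of 5 or fewer, as the markers or as extremes of a single library, were chosen after their values were seen. The 7 hypoxia markers listed have no symbol in the table. No sequences or coordinates are printed, since the reference table (70 of 73 genes found) belongs to another assembly.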

Additional observations from a re-analysis of the deposited data

How the results depend on the processing

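Leaving out 1 line at a time gave 1 to 4 higher and 1 to 7 lower chaperone genes, against 6 and 5 with both, while the share of all genes moved between 1.31% and 6.46% higher and between 0.956% and 6.72% lower, and DNAJC6 was the only gene called each time. Adding the osteoblast culture to the lines gave 11 higher and 8 lower (16.8% and 13.4% of all genes), and a pseudocount of 0.1 FPKM gave 9 lower (10.8% of all genes). The causes were not tested. In a replicate block on the title numbers shared by the 2 lines and 2 tumours (DOS.8 and DOS.78) 0 were higher and 0 lower, and no gene at all passed with these 4 libraries. The labels state no pairing, and the difference between the lines correlated with the difference between the same-numbered tumours at r = 0.269 across genes. The other settings kept both counts within 1.5 times. With no filter 6 chaperone genes were among the 10% most variable, where more low genes enter. With the 2 outermost tumours dropped, 8 pairs passed in place of 22, among them HSPA5 with DNAJB11, which had not passed with all tumours.

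For single libraries, quantile normalisation gave 1 chaperone gene below all tumours in the metastasis (5.24% of all genes) and 10 above in the osteoblast culture (14.8%), and a class difference of 0.76 in place of 1.66 in the culture, which then lay inside the tumour range. Upper quartile scaling gave 22 below in the culture (31.2%). The class difference in the metastasis stayed between -1.80 and -1.73.

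Signs turned for values that had not passed. In the lines, HSP90AA1 was at -0.50 without OSCA.8 (0.88 without OSCA.78), -0.27 with the culture added and -0.95 under the replicate block, HSPH1 at -0.51 under the replicate block, and HSPE1 at 0.25, P4HA2 at 0.29, HSPB6 at 0.04 and HSPB7 at 0.74 with the culture added. Without OSCA.78, HSPD1 was at 0.52, P4HA2 at 0.03, PLOD1 at -0.02 and SERPINH1 at -0.11, and without OSCA.8 they were at -0.58, -0.52, 0.88 and 0.43. With the 2 outermost tumours dropped, r was 0.03 for HSPH1 with FOS, 0.15 for HSPA5 with PDIA4 and 0.31 for HSPA5 with SERPINH1. Quantile normalisation gave -0.23 for HSPA5 with DDIT3, 0.03 for HSPA5 with SERPINH1 and 0.07 for SERPINH1 with HSPA8. Without DOS.76 r was 0.14 for HSPA5 with PDIA4, -0.06 for HSPA5 with DDIT3 and 0.15 for HSPA5 with SERPINH1. With 27 tumours it was 0.03 for SERPINH1 with P4HA3 and 0.01 for HSPH1 with FOS. The last 2 settings, DOS.6 left out and the scaled counts of single libraries were chosen after seeing the data. Depth in reads is unknown, so low values have no counting interval.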
